A study of Mus musculus with 15 samples.

Results

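Gene expression was followed across an ordered series of 3 mouse genotypes, taken as 3 levels of STAT5A, in lymph node cells selected for CD8. All 15 of the 15 samples entered, 5 per genotype, ordered as WT (step 0), cS5Alo (step 1) and cS5Ahi (step 2). WT mice were C57BL/6N, and the lymph nodes of 2 to 3 WT mice were pooled for each sample. Strain and pooling are given here for WT only, and their part in differences from WT was not tested. All mice were 15 weeks old and untreated, and the cells were isolated by MagniSort positive selection without culture. The labels do not explain the line names; as known from the study, cS5Alo and cS5Ahi are lines that carry a hyperactive variant of STAT5A under the Vav1 promoter, which is active across blood cells, at a lower and a higher level. Each line is therefore altered in all blood cells and not in CD8 T cells alone. The question was which genes followed the ordered dose in proportion and which changed at the high dose only.

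STAT5A and its close relative STAT5B are transcription factors that JAK kinases phosphorylate when interleukin 2, 7 or 15 binds its receptor. The phosphorylated dimer enters the nucleus and binds sites in genes for survival, cytokine receptors and feedback inhibitors. In CD8 T cells this pathway is known for keeping naive and memory cells alive and for driving effector differentiation.

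Libraries held 12177642 to 33948416 reads in genes. The share of reads outside annotated genes ran from 23 to 40.8% and was highest in WT 3 (39.8%), WT 4 (40.8%) and cS5Ahi 4 (36.8%). The cS5Ahi libraries shared 1 flow cell, and the other 10 libraries ran on a different one, so flow cell and the high dose cannot be told apart. A gene that stands apart in cS5Ahi alone has the pattern that a difference between flow cells would also give. At even steps the linear term rests on WT and cS5Ahi, which ran on different flow cells. Every linear trend below, and the place of cS5Alo along it, therefore shares this limit. The labels do not say whether samples of a group came from separate animals, and p-values therefore reflect only sample-to-sample spread, which may be technical. Cd8a, which encodes the alpha chain of the CD8 co-receptor, averaged 2350 ± 172 CPM in WT, 2310 ± 87.9 in cS5Alo and 2450 ± 184 in cS5Ahi (SD, n = 5 per group here and below; CPM is the count of a gene over its TMM-scaled library size). The 7 CD8 T cell marker genes tested had slopes from -0.15 (Cd3g) to 0.12 (Cd8b1) per step on the log2 scale. The lowest adjusted p among them for this ordered dose in edgeR's quasi-likelihood test was 0.0695, for Cd3g. With the Stat5a level as the dose, 1 of the 7 was called. For cS5Ahi 1 the labels conflict, since the free-text description gives the low-dose genotype and the other fields give the high-dose one, under which it was analysed. Its Stat5a level of 436 CPM lay within the range of the other cS5Ahi libraries.

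The dose itself was uneven. Stat5a read 90.2, 81.9, 71.4, 74.6 and 95.7 CPM in WT 1 to 5, then 114, 117, 107, 100 and 100 CPM in cS5Alo 1 to 5, and 436, 404, 509, 458 and 635 CPM in cS5Ahi 1 to 5. The 3 groups did not overlap. Mean log2 CPM lay 0.38 above WT in cS5Alo and 2.55 above WT in cS5Ahi. On a log2 scale cS5Alo had thus covered 15.1% of the range from WT to cS5Ahi, and on the linear CPM scale 6.12%. Stat5b, whose product shares most STAT5A functions, averaged 129 ± 16.9, 124 ± 12.3 and 121 ± 13.3 CPM, and its linear term was not called (adjusted p = 0.685). Reads of a transgene and of the mouse's own Stat5a cannot be told apart in these counts, and a transcript level is not a measure of STAT5A activity.

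**Figure D1:**
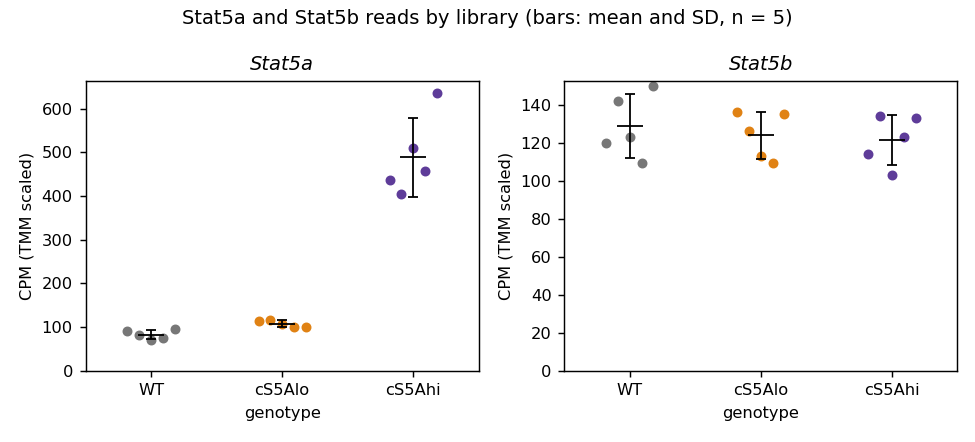
Stat5a and Stat5b in each of the 15 libraries (y axis, CPM with TMM scaling) by genotype (x axis). Points are libraries, and bars give the mean and SD of 5. Stat5a lies at 71.4 to 95.7, then 100 to 117 and then 404 to 635 CPM in dose order, whereas Stat5b overlaps between all groups.

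Across 11979 tested genes, 1692 (14.1%) had a linear trend over the 3 ordered steps at an adjusted p under 0.05, 824 rising (6.88%) and 868 falling (7.25%). Without TMM factors, on library size alone, 603 rose and 1177 fell. A test for any change among the genotypes called 1514 genes (12.6%). A quadratic term, which measures how far cS5Alo lay from the midpoint of WT and cS5Ahi, was called for 131 genes (1.09%). Of these, 107 also had a linear trend, and in 106 of the 107 most of the change came between cS5Alo and cS5Ahi. The quadratic count fell to 64, 61 and 60 without cS5Alo 1, 3 or 4 and rose to 208 without cS5Alo 5.

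With the mean log2 CPM of Stat5a as the dose, 1758 of 11978 genes (14.7%; Stat5a itself left out) had a linear trend. Curvature around that line was called for 0 genes (0%) by edgeR's quasi-likelihood test. The smallest adjusted p was 0.261, and 1136 genes (9.48%) had an unadjusted p under 0.05. DESeq2 called 38 such genes and limma voom 0, and without cS5Alo 5 edgeR called 3. Because cS5Alo sat close to WT on this scale, the test mostly asks whether cS5Alo departed from near WT levels.

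The position of cS5Alo was measured for each gene as the percentage of its WT to cS5Ahi log2 change that was reached in cS5Alo. A gene that changes by even steps has a position of 50%, and a gene in proportion to log2 Stat5a has 15.1%. Over the 1691 trending genes other than Stat5a the median position was 30.2% (quartiles 11.4 and 47.5%). Rising genes had a median of 23.8% and falling genes of 35.5%, and the test of that difference was not made. The 95% interval of the position held 50% for 1194 genes and the Stat5a position for 1422 genes. It held both for 1004 genes, so for most genes these libraries do not separate the 2 dose scales. Only 50% was held by 190 genes, only the Stat5a position by 418, and neither by 79.

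**Figure D2:**
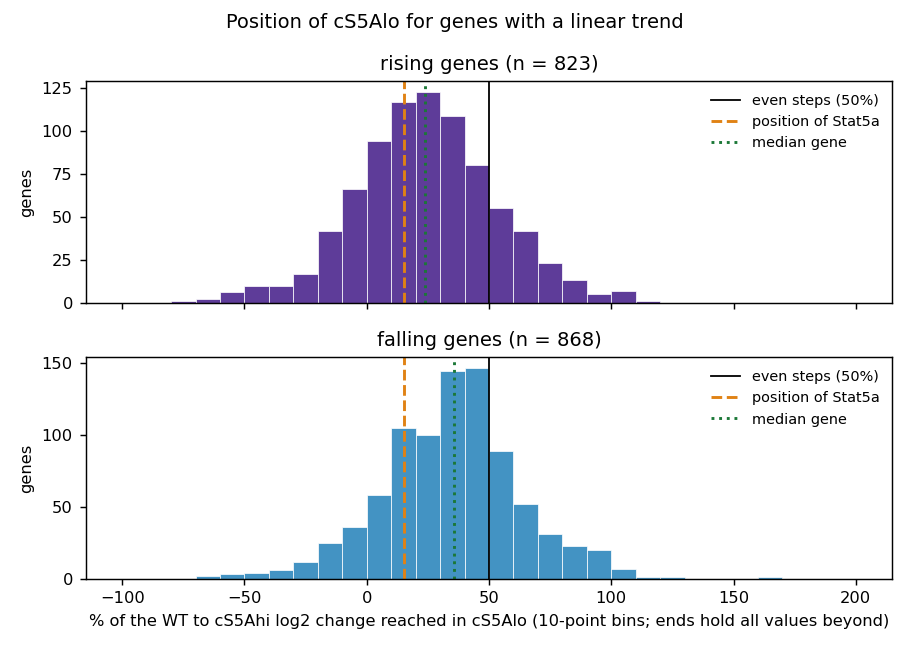
Number of genes (y axis) by the percentage of the WT to cS5Ahi log2 change reached in cS5Alo (x axis, 10-point bins), for 823 rising and 868 falling genes with a linear trend, Stat5a left out. The dashed line is the Stat5a position (15.1%) and the solid line even steps (50%). Rising genes have a median of 23.8% with quartiles of 5.32 and 42.1%, and falling genes a median of 35.5% with quartiles of 18.1 and 50.9%.

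The intervals sorted the trending genes into shapes. A gene was graded when its interval held 50% and excluded both 0 and 100%, which 205 genes did (1.71%; 78 rising, 127 falling). It was low partial when the interval lay between 0 and 50%, as for 44 genes (0.367%; 34 rising, 10 falling). High only, with 0% inside the interval and 50% above it, described 425 genes (3.55%; 261 rising, 164 falling). Plateau, with 100% inside and 50% below, described 17 genes (0.142%), and 991 genes stayed undetermined. The other 10 trending genes had cS5Alo beyond WT on the opposite side (9) or beyond cS5Ahi (1). Another 24 genes were called by the quadratic term alone and had cS5Alo highest or lowest (0.2%, here called turning).

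These counts cannot be set against each other directly, because a graded call must exclude 2 positions and a high only call 1. The median change per step of the rising genes was 0.60 (log2) for graded, 1.15 for low partial and 0.53 for high only genes. High only does not mean out of proportion to Stat5a: the Stat5a position lay inside the interval for 377 of the 425 high only genes, for 41 of the 43 low partial genes other than Stat5a and for 146 of the 205 graded genes. Without WT 4 the graded count was 134 and without both WT 3 and WT 4 it was 87. The low partial count was 29 without WT 3 and 26 without cS5Alo 2. Intervals were not adjusted over genes. The adjusted test called 0 genes for curvature around the Stat5a line. An interval that excludes the Stat5a position is therefore a description of that gene and not an adjusted call.

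**Figure D3:**
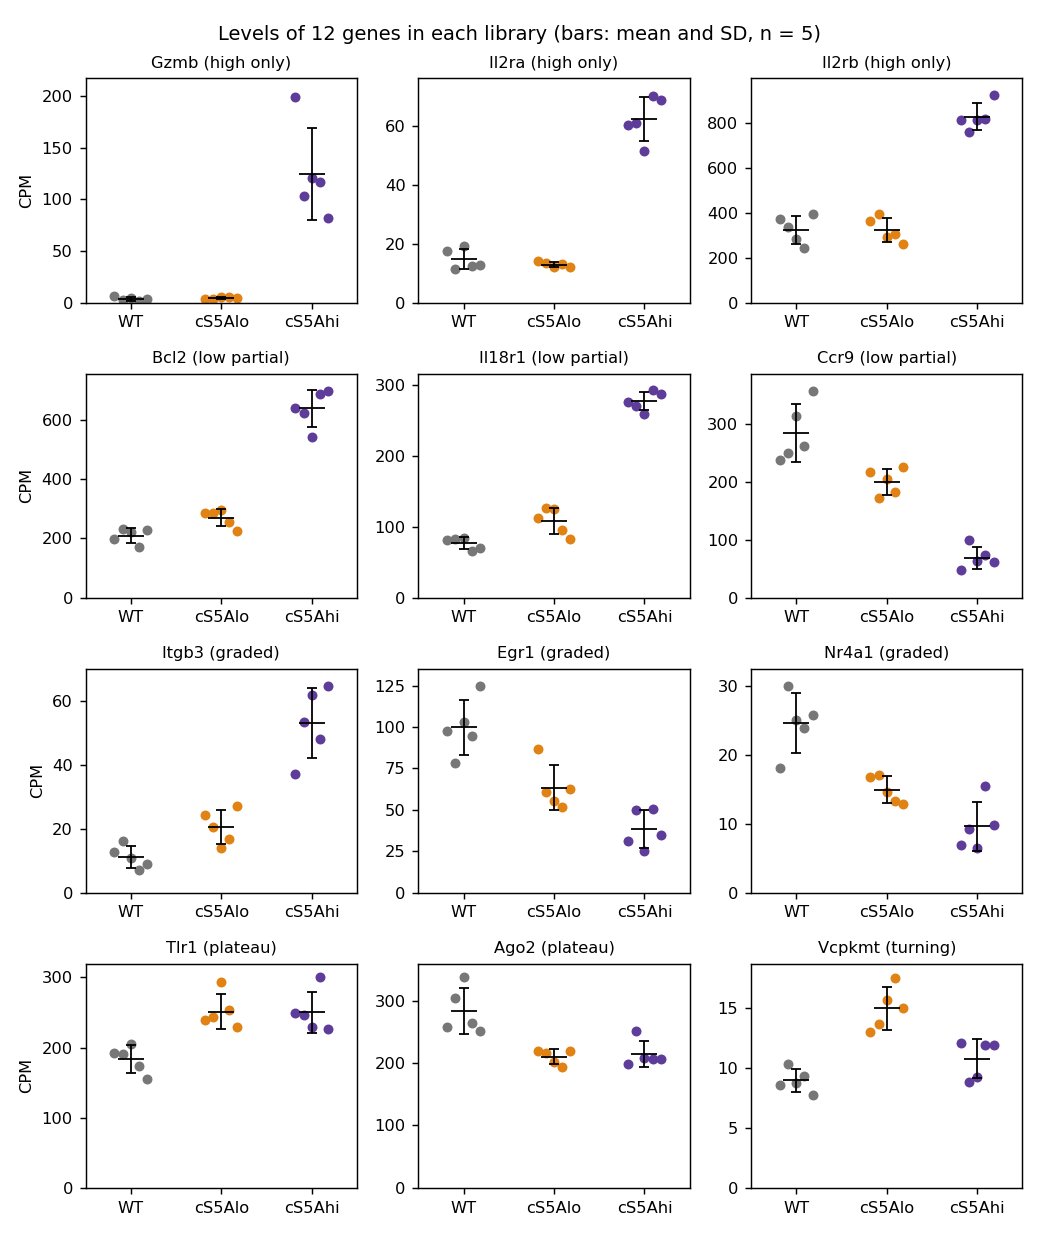
CPM (y axes, linear from 0) in each library by genotype (x axes) for 12 genes, 3 per row: high only, low partial, graded, and plateau or turning. Points are libraries, and bars give the mean and SD of 5. Gzmb, Il2ra and Il2rb stay at WT levels in cS5Alo, and Bcl2, Il18r1 and Ccr9 move partway in cS5Alo. Itgb3, Egr1 and Nr4a1 have intervals that hold even steps on the log2 scale, which is not the scale drawn. Tlr1 and Ago2 have reached their cS5Ahi level in cS5Alo.

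Many cytotoxic and effector genes rose, most of them with little or no change in cS5Alo. Of 33 effector and cytotoxic genes tested, 20 rose and 0 fell, against 6.88 and 7.25% of all genes. Those shares are the background for every list count below. The lists were chosen with earlier results of these data known, so their counts are descriptions. Among the 20, 12 were high only, 4 low partial, 0 graded and 4 undetermined, and the median position of the 20 was 11.1%. The list's median change was 0.39 per step (log2), against 0.00 for all genes. Gzma, Gzmk, Nkg7, Ccl3, Ccl4 and Tnf were among the 13 that were not called.

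Gzmb encodes granzyme B, the protease that cytotoxic granules deliver into target cells. It read 6.78, 2.62, 4.8, 1.59 and 3.67 CPM in WT 1 to 5 and 3.81, 3.54, 5.56, 5.23 and 4.19 CPM in cS5Alo 1 to 5. In cS5Ahi 1 to 5 it read 199, 103, 121, 117 and 82.3 CPM. WT and cS5Alo overlapped throughout, and every cS5Ahi library stood above them. Its log2 slope was 2.51 ± 0.14 per step (SE; adjusted p = 7.82e-09), cS5Alo lay 2.30 below the midpoint (quadratic adjusted p = 0.000203), and its position was 4.1% (interval -9.3 to 15.9%). Whether reads shared with similar granzyme genes affect its level was not tested.

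Other high only rises had the same form. S1pr5, a sphingosine-1-phosphate receptor that guides lymphocyte exit from tissue, was at 0 to 0.494, 0.249 to 0.595 and 10.9 to 18.8 CPM in WT, cS5Alo and cS5Ahi. Klrc1, which encodes the inhibitory receptor NKG2A, spanned 1.59 to 4.02, 1.82 to 5.73 and 28 to 60.6 CPM in the same order. S100a6, a calcium-binding protein gene of activated T cells, spanned 3.92 to 18.7, 6.19 to 14.3 and 106 to 187 CPM. In all 3 genes WT and cS5Alo overlapped and cS5Ahi did not overlap with either. Over all 11979 tested genes, cS5Ahi lay above all 10 other libraries in 463 genes, 231 of them high only. It lay below all 10 in 271 genes, 108 of them high only. High only genes were named for their large changes, so such a separation partly follows from that choice.

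The smallest p of the quadratic term belonged to Myo6, an actin motor of the unconventional myosin class. It read 6.25, 3.4, 3.53, 4.53 and 4.37 CPM in WT, 5.74, 5.08, 6.35, 5.53 and 4.37 CPM in cS5Alo, and 74.6, 87.9, 79.1, 72.7 and 89.2 CPM in cS5Ahi. Its position was 7.3% (interval -0.6 to 14.5%; quadratic adjusted p = 1.25e-06). Entpd1, the gene of the ATP-splitting surface enzyme CD39, averaged 2.40 ± 0.469, 2.98 ± 0.637 and 29.5 ± 2.76 CPM with a position of 9.2% (interval -1.0 to 18.4%). The intervals of both genes barely held 0%, and Entpd1 was high only in 19 of 25 other settings and Myo6 in 21.

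The alpha and beta chains of the interleukin 2 receptor were also high only. Il2ra, the alpha chain that gives the interleukin 2 receptor its high affinity, read 17.4, 11.5, 19.2, 12.5 and 12.8 CPM in WT 1 to 5. It read 14.1, 13.3, 12, 13.2 and 12 CPM in cS5Alo 1 to 5 and 60.4, 61.1, 51.4, 70.2 and 68.7 CPM in cS5Ahi 1 to 5. The cS5Alo values lay inside the WT range, and the position was -8.6% (interval -24.9 to 5.3%). This unadjusted interval excludes the Stat5a position of 15.1%, but curvature around the Stat5a line was not called (quasi-likelihood adjusted p = 0.351). Of the 425 high only genes, 48 had an interval below that position.

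Il2rb, the beta chain shared by the interleukin 2 and 15 receptors, spanned 241 to 392, 260 to 395 and 760 to 924 CPM in dose order, with a position of -0.8% (interval -25.3 to 18.9%). Il7r, Il15ra and Il2rg, the alpha chains of the interleukin 7 and 15 receptors and the shared gamma chain, were not called (log2 slopes 0.06, 0.12 and 0.05). Of 26 cytokine receptor genes, 11 rose and 4 fell, against 6.88 and 7.25% of all genes: 5 were high only, 3 low partial and 2 graded.

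Of 28 listed STAT5 target genes, 13 rose, 3 fell and 12 were not called. The 16 called divided into 10 high only, 2 low partial, 1 graded and 3 undetermined, with a median position of 4.05% over the 16 called. The list's median change was 0.27 per step (log2), against 0.00 for all genes. Cish, a feedback inhibitor of the pathway, averaged 7.40 ± 2.42 CPM in WT, 6.50 ± 1.62 in cS5Alo and 17.2 ± 4.27 in cS5Ahi. Its position was -14.9% (interval -81.8 to 23.6%). Prdm1, which encodes the effector factor BLIMP-1, spanned 4.29 to 6.28, 4.67 to 5.89 and 11.3 to 13.6 CPM. Pim1, a survival kinase gene, was low partial at 15.4 ± 3.13, 19.8 ± 4.07 and 43.6 ± 2.65 CPM. Socs2, Socs3, Osm, Mcl1 and Ccnd2 were among the 12 not called.

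Bcl6, a repressor that STAT5 is known to switch off, was the graded member. It averaged 51.7 ± 24.7 CPM in WT, 32.2 ± 6.67 in cS5Alo and 20.3 ± 1.31 in cS5Ahi, a change of -0.67 ± 0.11 per step (adjusted p = 0.000314). Its position was 50.6% (interval 19.5 to 82.1%). This unadjusted interval excludes the Stat5a position, but curvature around the Stat5a line was not called after adjustment. The opposite slopes of Cish and Bcl6 came with different positions in cS5Alo, but the interval of Cish was wide and the difference between them was not tested.

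Promoter windows (250 bases before to 50 after an annotated start, RefSeq, GRCm38.p6) were searched for the STAT motif TTCNNNGAA, which reads the same on both strands. A match is a description of letters and not a bound site. Of 9534 tested genes with a window, 809 (8.49%) held it, against 18 of 212 rising high only genes (8.49%), 2 of 26 rising low partial genes (7.69%), 9 of 129 falling high only genes (6.98%), 5 of 70 rising graded genes (7.14%) and 10 of 95 falling graded genes (10.5%). In the STAT5 target list 7 of 24 genes held it (29.2%). The windows of Cish and Gzmb (high only rises) and Bcl6 (graded fall) are the called ones among the 7 and are shown for that reason; capitals mark the matches. The other 4, Foxp3, Lta, Ltb and Socs3, hold the letters too and were not called by the linear term. Cish lies on chromosome 9, 107296409 to 107296708 (+ strand), Gzmb on chromosome 14, 56262285 to 56262584 (- strand), and this Bcl6 start on chromosome 16, 23981234 to 23981533 (- strand).
Cish: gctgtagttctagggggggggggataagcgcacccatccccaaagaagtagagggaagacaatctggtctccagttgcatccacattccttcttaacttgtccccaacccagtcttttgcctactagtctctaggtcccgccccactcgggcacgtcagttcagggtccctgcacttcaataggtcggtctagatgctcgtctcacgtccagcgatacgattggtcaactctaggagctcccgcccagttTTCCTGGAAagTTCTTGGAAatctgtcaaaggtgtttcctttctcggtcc
Gzmb: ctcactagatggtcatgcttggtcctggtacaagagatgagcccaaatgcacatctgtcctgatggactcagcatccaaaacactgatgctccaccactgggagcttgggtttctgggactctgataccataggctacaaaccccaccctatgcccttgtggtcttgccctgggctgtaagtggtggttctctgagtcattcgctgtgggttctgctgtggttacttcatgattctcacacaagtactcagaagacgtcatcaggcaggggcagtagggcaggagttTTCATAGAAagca
Bcl6: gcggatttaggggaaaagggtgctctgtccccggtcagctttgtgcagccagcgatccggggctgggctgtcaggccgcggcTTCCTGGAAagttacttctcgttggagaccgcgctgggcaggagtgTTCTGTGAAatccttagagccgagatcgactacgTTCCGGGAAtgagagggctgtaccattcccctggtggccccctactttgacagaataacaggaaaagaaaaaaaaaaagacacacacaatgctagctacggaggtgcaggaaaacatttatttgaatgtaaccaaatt

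Memory-type genes included many with a measurable step in cS5Alo. Of 25 memory CD8 T cell genes, 16 rose and 1 fell. They divided into 8 low partial, 6 high only and 2 graded, with a median position of 22.7% over the 17 called and a median change of 0.67 per step (log2) against 0.00 for all genes. The list shares genes with the effector list, and the 44 low partial genes of the whole table (0.367%) include 8 of its 25 members. Il7r and Ccr7, a survival and a homing receptor of naive and central memory cells, were not called (log2 slopes 0.06 and -0.17).

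Bcl2, the survival factor that blocks mitochondrial cell death, read 197, 232, 221, 170 and 228 CPM in WT 1 to 5 and 286, 285, 297, 256 and 225 CPM in cS5Alo 1 to 5. In cS5Ahi 1 to 5 it read 639, 622, 542, 687 and 698 CPM. Of the cS5Alo libraries 4 lay above all WT libraries, and cS5Ahi did not overlap with either group. The slope was 0.80 ± 0.06 per step (adjusted p = 1.78e-08), and the position was 22.6% (interval 8.6 to 35.5%), which holds the Stat5a position. Its antagonist Bcl2l11, which encodes the death factor BIM, was high only at 92.7 ± 8.6, 92.2 ± 15 and 171 ± 14.3 CPM.

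Il18r1, a chain of the interleukin 18 receptor, spanned 66 to 84.6, 83 to 126 and 260 to 293 CPM in dose order. Only cS5Alo 5 (83 CPM) fell inside the WT range, and the position was 26.7% (interval 14.4 to 38.2%). Bcl2, Il18r1 and Ccr9 were low partial in 25 of 25 other settings.

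The T-box factors behind effector and memory fates moved alike. Eomes read 58, 63, 36.9, 39.5 and 61.4 CPM in WT, 63.7, 80.3, 61.2, 69.1 and 74.9 CPM in cS5Alo and 150, 139, 146, 174 and 190 CPM in cS5Ahi. Its position was 26.4% (interval 8 to 43%). Tbx21, which encodes T-bet, averaged 11.2 ± 4.32, 16.6 ± 3.56 and 58.6 ± 9.35 CPM with a position of 23.6% (interval 5.7 to 39.5%). For both genes cS5Alo overlapped with WT in some libraries and cS5Ahi with none. Runx2, another factor of long-lived CD8 cells, was high only instead (22 to 33.2, 22 to 34 and 67.1 to 108 CPM).

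Chemokine receptor and adhesion genes went in both directions. Of 32 tested, 8 rose and 8 fell, against 6.88 and 7.25% of all genes. They divided into 5 high only, 4 low partial, 2 graded and 5 undetermined, and the list median was -0.08 per step (log2). Ccr2, the receptor for CCL2, averaged 6.89 ± 1.92, 8.92 ± 1.27 and 98.8 ± 12 CPM, and its interval of 1.0 to 18.4% barely excluded 0%, so that it turned high only in 8 of 25 other settings. Cxcr3, which steers T cells to interferon-induced chemokines, was graded at 131, 63.9, 45.3, 43.1 and 126 CPM in WT, 137, 152, 111, 118 and 95.1 CPM in cS5Alo and 315, 282, 331, 294 and 304 CPM in cS5Ahi. WT 1 and WT 5 lay inside the cS5Alo range and the other WT libraries below it. Cxcr3 stayed graded in 17 of 25 other settings.

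In the same list Ccr9 and Itgae were low partial falls. Ccr9, a receptor for the gut chemokine CCL25, read 238, 250, 314, 263 and 357 CPM in WT 1 to 5, 218, 172, 205, 183 and 225 CPM in cS5Alo and 47.7, 99.3, 62.9, 73.9 and 61.4 CPM in cS5Ahi. The 3 groups did not overlap. It fell by 1.02 on the log2 scale per step (SE 0.08, adjusted p = 1.05e-07), with a position of 24.7% (interval 8.8 to 39.1%). Itgae, which encodes the E-cadherin ligand CD103, spanned 172 to 234, 137 to 169 and 41.1 to 67.5 CPM without overlap, with a position of 18.2% (interval 4.1 to 30.9%). Over all tested genes, 14 rose and 10 fell in dose order without any overlap of the 3 groups.

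**Figure D4:**
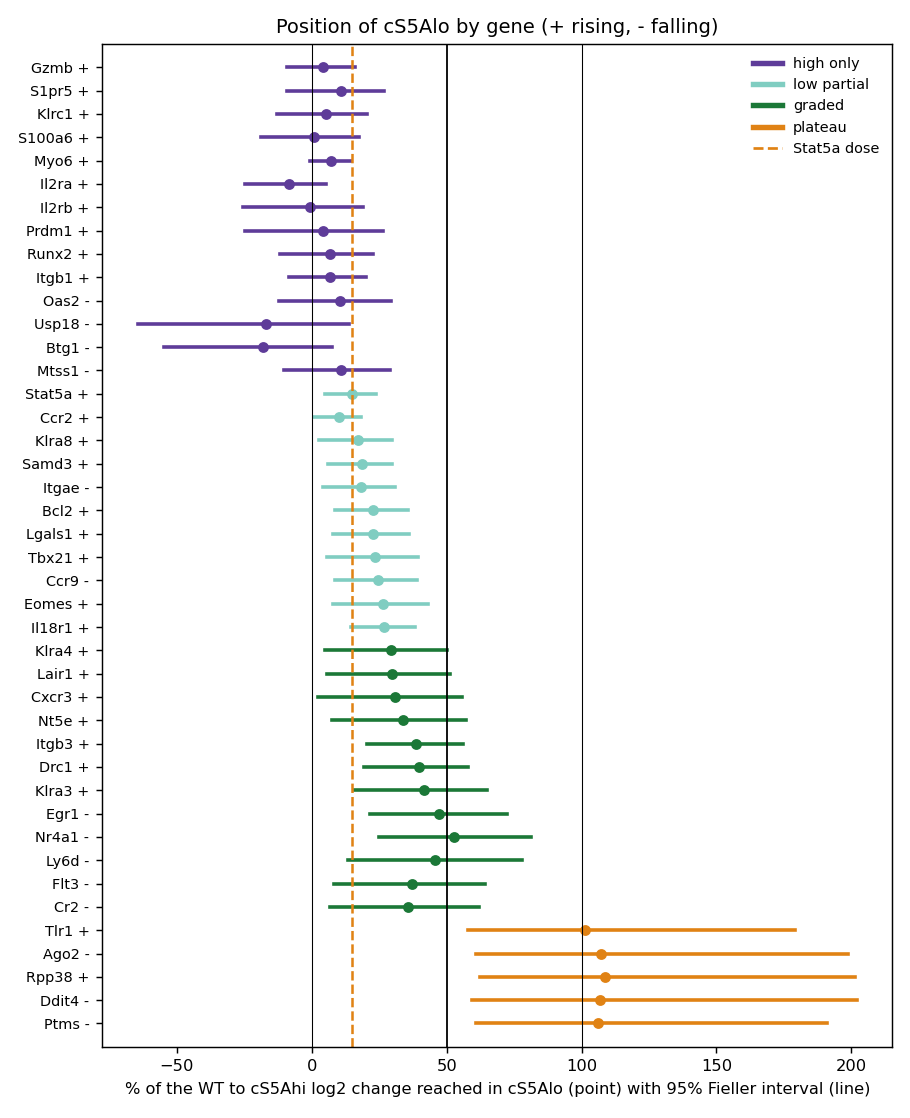
Position of cS5Alo on the WT to cS5Ahi log2 change (x axis, point) with its 95% Fieller interval (line) for 42 named genes (y axis), coloured by shape; the dashed line is the Stat5a dose at 15.1% and the solid line 50%. High only genes such as Gzmb and Il2ra have intervals across 0%, Bcl2 and Il18r1 lie between 0 and 50%, Egr1 and Nr4a1 lie near 50%, and plateau genes such as Tlr1 near 100%.

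Killer lectin-like receptors, which sense MHC class I and related ligands on target cells, rose in 12 of 16 tested genes and fell in 0. Of its members 6 were high only, 3 graded, 1 low partial and 2 undetermined, with a median position of 18.6%. The list's median change was 1.17 per step (log2), against 0.00 for all genes. Klra3 read 4.28, 2.95, 1.13, 1.35 and 3.91 CPM in WT, 4.37, 5.4, 7.14, 5.18 and 5.52 CPM in cS5Alo and 13.3, 9.7, 12.8, 23.7 and 12.9 CPM in cS5Ahi. Its 3 groups did not overlap, and its position was 41.7% (interval 16.0 to 65.1%), graded in 25 of 25 other settings.

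The gene entry shared by Klra8 and Klra9 had the largest slope of the list, 3.01 ± 0.20 per step. Its ranges were 0.71 to 3.29, 2.81 to 3.63 and 45.4 to 195 CPM in dose order, with a position of 17.2% (interval 2.8 to 29.7%). Klra4 was graded with an interval of 4.9 to 50.2% and became high only or low partial in other settings. Klrd1 and Klrk1 were not called (log2 slopes -0.18 and 0.13). Because near-identical Klra copies share reads, it is uncertain which member changed. Natural killer cells also carry these receptors: of 9 natural killer and innate-like marker genes 5 rose and 1 fell, and Ncr1 was not called (log2 slope -0.92). Fcer1g averaged 40.6, 18.8 and 12 CPM and Tyrobp 22.8, 13.7 and 10.9 CPM in dose order. The marker list's mean log2 CPM was 2.19 to 3.82, 2.71 to 3.48 and 3.95 to 4.68 in dose order. This list holds the Klra8 entry, Eomes and Il2rb, so its score is not separate from their rises. The part of natural killer cells in these rises was not tested.

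Graded rises came from genes of varied kinds. Itgb3, the integrin beta 3 chain, read 12.8, 16.2, 11, 7.15 and 9.06 CPM in WT, 24.2, 20.6, 14.1, 16.8 and 27.1 CPM in cS5Alo and 37.2, 53.4, 61.8, 48 and 64.4 CPM in cS5Ahi. WT and cS5Alo overlapped only through WT 2 and cS5Alo 3, and cS5Ahi stood apart. The slope was 1.11 ± 0.11 per step (adjusted p = 9.65e-07) and the position 38.8% (interval 20.5 to 55.9%). This unadjusted interval lies above the Stat5a position, but curvature around the Stat5a line was not called after adjustment. Drc1, a subunit of the axonemal dynein regulator, spanned 0.635 to 6.84, 5.85 to 14.7 and 37.4 to 67.1 CPM with a position of 39.7% (interval 19.3 to 58.1%). Pdlim4 averaged 1.65 ± 0.827, 3.63 ± 0.904 and 12.9 ± 3.64 CPM with a position of 37.5%. Lair1, an inhibitory collagen receptor, and Nt5e, which encodes the adenosine-forming CD73, had positions of 29.9 and 33.7%. Of the 205 graded genes, 59 had an interval wholly above the Stat5a position.

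Immediate early genes, which T cell receptor and stress signals switch on within minutes, held several falls whose intervals held even log2 steps. Of 17 tested, 7 fell and 2 rose. Of the falls 3 were graded (Egr1, Nr4a1 and Dusp1), and the list's median change was -0.46 per step (log2) against 0.00 for all genes. Egr1 read 97.6, 78.4, 103, 94.7 and 125 CPM in WT 1 to 5, 86.7, 61, 55.6, 51.6 and 62.5 CPM in cS5Alo and 31.5, 50.1, 25.1, 50.6 and 34.6 CPM in cS5Ahi. Only cS5Alo 1 fell inside the WT range, and no cS5Ahi library reached cS5Alo. It fell by 0.69 on the log2 scale per step (SE 0.09, adjusted p = 4.62e-05), with a position of 47.3% (interval 21.6 to 72.5%).

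Nr4a1, a nuclear receptor that tracks antigen receptor signals, read 18, 30, 25, 23.9 and 25.8 CPM in WT, 16.8, 17.1, 14.6, 13.3 and 12.9 CPM in cS5Alo and 6.9, 9.24, 6.55, 15.5 and 9.82 CPM in cS5Ahi. WT and cS5Alo did not overlap, and only cS5Ahi 4 reached the cS5Alo range. Its position was 52.6% (interval 24.9 to 81.1%). Both Egr1 and Nr4a1 stayed graded in 25 of 25 other settings, and their unadjusted intervals exclude the Stat5a position of 15.1%. Curvature around the Stat5a line was called for neither gene after adjustment (quasi-likelihood adjusted p = 0.449 for Egr1). Jun, Junb, Nr4a2, Nr4a3 and Ier2 were among the 8 genes not called.

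Most markers of B cells and some of dendritic cells fell over the same dose order. Of 14 B cell markers 11 fell and 0 rose, and of 10 dendritic markers 5 fell and 0 rose. Among those not called, Cd22 of the B cell list averaged 25.4, 22.2 and 35 CPM in dose order. Itgax and Bst2 of the dendritic list averaged 5.73, 5.37 and 5.89 CPM and 37, 39.8 and 33.1 CPM. Averaged as log2 CPM, the B cell list spanned 3.28 to 5.30, 3.94 to 4.72 and 2.08 to 3.66 in dose order, a slope of -0.82 per step (2-sided permutation p = 0.0016, adjusted over 11 lists 0.00587). The dendritic list spanned 2.25 to 3.61, 1.96 to 2.70 and 1.32 to 2.10, a slope of -0.65 (permutation p = 0.00031, adjusted 0.0017). In bulk samples, fewer cells of a type and less RNA per cell cannot be told apart.

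Adam23, Clu, Insm1, Ly6d, Sema6d and Slco5a1 had the largest falls among graded genes with a mean of at least 10 CPM in their highest group. Adam23, a cell adhesion gene, read 25.5, 8.11, 48.4, 50.5 and 9.77 CPM in WT 1 to 5, 8.27, 11.4, 12.4, 7.97 and 5.4 CPM in cS5Alo and 1.14, 6.36, 2.14, 5.5 and 3.37 CPM in cS5Ahi. WT 1, 3 and 4 were high, whereas WT 2 and 5 lay inside the cS5Alo range. Insm1, a zinc finger factor gene, was likewise at 22 and 31.8 CPM in WT 3 and 4, 9.54 in WT 1, and 4.3 and 5.15 in WT 2 and 5, against 2.62 to 6.75 in cS5Alo. Flt3, the growth factor receptor of dendritic cells, read 17, 4.52, 15.9, 21.4 and 6.55 CPM in WT, a similar order of libraries. Ly6d departed from it, with its highest value, 89.3 CPM, in WT 5.

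The SD of graded falling genes was a median 48.2% of the mean in WT, against 22.6% for all tested genes. When the B cell score entered the fit, 26 of the 127 graded falls (20.5%) kept their linear call. This share was close to that of all trending genes, 361 of 1692 (21.3%). The call was kept by 44 of 78 graded rises, 125 of 261 high only rises and 67 of 164 high only falls. Of the 6 genes named above 0 kept it. The B cell score itself follows the dose, so this fit removes part of any trend. Leaving out WT 3 and WT 4 kept the linear call of 120 of the 127. That call rests on WT and cS5Ahi and does not test the graded shape. Of all 205 graded genes, rising and falling, 62 (30.2%) stayed graded without WT 3 and WT 4. Other lists moved in the same direction in the permutation test of their mean log2 CPM. The endothelial and stromal list had the smallest p of the 11 lists, with a slope of -0.70 per step (adjusted p = 0.00077) and ranges of 0.11 to 1.20, -0.19 to 0.55 and -0.94 to -0.28 in dose order. Salivary gland, red cell and CD4 T cell lists had slopes of -1.30 (adjusted permutation p = 0.00651), -0.81 (0.0148) and -0.30 (0.0209). The salivary list was drawn from earlier results of these data, so its p cannot count as support. The other lists were chosen with those results known, so their p-values are descriptions as well. The CD4 T cell score was highest in WT 5 (3.61, against 2.24 to 3.01 in the other WT libraries), where Cd4 read 84.7 CPM. The part of these cells in the graded falls was not tested.

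**Figure D5:**
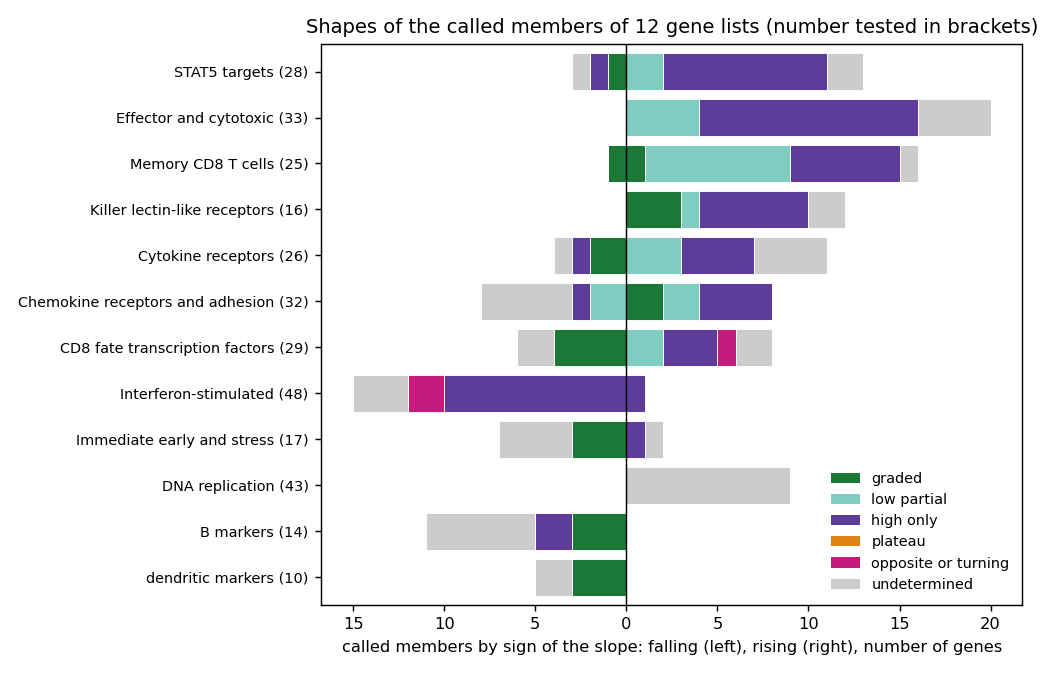
Called members of 12 gene lists (y axis, number tested in brackets) by sign of the slope, falling to the left and rising to the right of 0 (x axis, number of genes), coloured by shape. High only members lead among the 20 called effector genes and the interferon-stimulated falls, low partial members among the memory genes, and graded members appear in the immediate early, B cell and dendritic lists.

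Interferon-stimulated genes, the antiviral programme that interferons switch on, included falls at the high dose. Of 48 tested, 14 fell and 1 (Ifitm1) rose, against 7.25 and 6.88% of all genes. Of the called genes 11 were high only including Ifitm1, and 0 were graded. The median position of the 15 called was -1.7%, and the list's median change was -0.16 per step (log2) against 0.00 for all genes. Oas2, a sensor of double-stranded RNA, read 29.5, 36.8, 47.8, 31.6 and 29.5 CPM in WT, 17.6, 22.2, 20, 37.4 and 49.3 CPM in cS5Alo and 4.82, 7.9, 6.06, 7.5 and 4.08 CPM in cS5Ahi. WT and cS5Alo overlapped, with cS5Alo 4 and 5 above cS5Alo 1 to 3, and every cS5Ahi library was below both groups.

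Ifi27l2a spanned 44.3 to 95.5, 55.3 to 120 and 12 to 18.1 CPM in dose order, with a position of -18.0% (interval -46.8 to 3.7%). Usp18, which dampens interferon receptor signalling, averaged 45.3 ± 3.39, 50 ± 9.29 and 25.4 ± 3.73 CPM. Irf7, the master factor of type I interferon genes, had cS5Alo above WT at 104 ± 15.9, 130 ± 23 and 73.1 ± 8.71 CPM, with a position of -61.9% (interval -209.4 to -6.2%). Dhx58, the RNA sensor LGP2, read 16.1, 15.4, 12.4, 13.7 and 17.9 CPM in WT, 15.3, 17.7, 21.8, 26 and 22.5 CPM in cS5Alo and 11.5, 11.6, 10.5, 12 and 11.5 CPM in cS5Ahi. Its quadratic term was called (adjusted p = 0.00918) and its linear term was not (adjusted p = 0.0671). Stat2, a transcription factor of the interferon response, averaged 48.5 ± 4.56, 44.1 ± 5.38 and 38.0 ± 4.07 CPM (adjusted p = 0.0386), a call lost in 14 other settings.

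Transcription factors of CD8 fate went in both directions. Of 29 tested, 8 rose and 6 fell, against 6.88 and 7.25% of all genes. The median position was 23.5% over the 14 called, and the list median was -0.06 per step (log2). Of the 8 rises, Tbx21 and Eomes were low partial, Prdm1, Runx2 and Id2 high only, Gata3 and Nfil3 undetermined, and Bhlhe40 had cS5Alo below WT. The 4 graded members all fell: Bcl6, Ikzf2 (-1.08 per step), Irf4 (-0.66) and Batf3 (-1.54). Batf3, which dendritic cells need for their cross-presenting subset, is also on the dendritic list, and averaged 2.56 ± 2.51, 0.834 ± 0.289 and 0.303 ± 0.212 CPM. Tcf7, Zeb2, Runx3 and Bach2 were among the 15 not called.

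The 164 high only falls spread over several lists and many genes outside them. In the naive and quiescence list of 28 genes, falls numbered 7 and rises 1, against 7.25 and 6.88% of all genes. High only falls numbered 3, and Tcf7, Klf2 and S1pr1 were not called. Btg1, which restrains cell division, read 547, 577, 546, 522 and 579 CPM in WT, 606, 584, 629, 611 and 584 CPM in cS5Alo and 377, 361, 337, 359 and 313 CPM in cS5Ahi. Its cS5Alo libraries all lay above its WT libraries and its cS5Ahi libraries below both, with a position of -18.2% (interval -54.8 to 7.7%). Mtss1, an actin and membrane regulator, spanned 28 to 55.3, 30.8 to 43.5 and 8.01 to 14.1 CPM. Trat1, an adaptor of the T cell receptor complex, spanned 11 to 17.1, 9.74 to 12.7 and 1.23 to 2.77 CPM with an interval of -0.1 to 26.0%.

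A small set had already reached its cS5Ahi level in cS5Alo. In these genes WT stood apart from both lines, and the part of WT pooling or strain was not tested. The 17 plateau genes (7 rising, 10 falling) had moderate changes, with a median of 0.22 per step for the rises. Tlr1, a receptor for bacterial lipopeptides, read 193, 191, 205, 174 and 155 CPM in WT, 239, 243, 293, 253 and 229 CPM in cS5Alo and 250, 246, 230, 300 and 227 CPM in cS5Ahi. WT overlapped with neither other group, while cS5Alo and cS5Ahi overlapped throughout, and the position was 101.3% (interval 57.8 to 179.0%). Ago2, the slicing Argonaute of the microRNA pathway, spanned 251 to 338, 194 to 220 and 199 to 251 CPM.

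Rpp38, a subunit of RNase P, averaged 13.0 ± 1.31, 20.1 ± 3.71 and 19.4 ± 3.02 CPM, and Ddit4, an inhibitor of mTOR, 45.8 ± 10.5, 27.6 ± 7.23 and 28.6 ± 3.44 CPM. Both lost their linear call without WT 3 and WT 4 together, as did Ago2, and all 4 genes lost it once the B cell score entered the fit. The plateau count depended on single libraries, from 7 without cS5Alo 3 or cS5Alo 4 to 49 without WT 2 and 48 without WT 5.

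Turning genes had cS5Alo beyond both other groups. Of the 24, 16 had cS5Alo highest and 8 had it lowest. Vcpkmt, a lysine methyltransferase of the VCP chaperone, read 8.62, 10.3, 8.76, 9.37 and 7.79 CPM in WT, 13, 13.7, 15.7, 17.5 and 15 CPM in cS5Alo and 12.1, 8.85, 9.23, 11.9 and 11.9 CPM in cS5Ahi. Every cS5Alo library was above every other library (quadratic adjusted p = 0.014). Cdkal1, a tRNA-modifying enzyme, showed the same order at 17.7 to 25.1, 26.1 to 36.3 and 17.3 to 22.8 CPM. Clec2d, a ligand of lectin-like receptors, averaged 61.2 ± 6.79, 88.8 ± 22.4 and 51.5 ± 5.58 CPM, with cS5Alo 5 (51.2 CPM) apart from the other cS5Alo libraries (87.2 to 109).

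Gapdh, a glycolytic enzyme often used as a reference gene, had cS5Alo lowest at 122 ± 22.3, 86.0 ± 19.9 and 188 ± 70.2 CPM (quadratic adjusted p = 0.0416). It read 302 CPM in cS5Ahi 4 and was turning in 8 of 25 other settings. Its gene entry is deposited under the name GM5138, so these values may not be the level of Gapdh itself. The transcription factor Bhlhe40 rose with cS5Alo below WT, at 5.74 ± 1.94, 4.10 ± 0.23 and 12.6 ± 2.01 CPM and a position of -41.6% (interval -108.5 to -3.4%). The turning count ranged from 1 without cS5Alo 4 and 2 without cS5Alo 3 to 84 without cS5Alo 5.

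Some DNA replication genes rose by small steps. Of 43 DNA replication genes 9 rose and 0 fell, with a list median of 0.16 per step (log2) and all 9 undetermined in shape. Of 45 mitosis genes 2 rose and 0 fell (list median 0.18), a smaller share of rises than the 6.88% of all genes. Myc rose from 178 ± 36.2 through 189 ± 15.7 to 262 ± 29.4 CPM (adjusted p = 0.00502), with an interval of -46.7 to 56.4% that held both 0 and 50%. Of 23 glycolysis and nutrient uptake genes 9 rose, 5 of them high only. Among 23 JAK-STAT pathway genes other than Stat5a 3 rose and 2 fell, all undetermined, against 6.88 and 7.25% of all genes. In 27 T cell receptor signalling genes 3 rose and 1 fell, a share close to the 14.1% called among all genes.

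Within genotypes, the Stat5a level of single libraries gave no stable relation. A fit with the Stat5a deviation of each library from its group mean called 602 of 11978 genes (5.03%), 286 rising and 316 falling with Stat5a, at adjusted p values of 0.0412 to 0.0499. Of these, 45 were among the genes with a trend across genotypes. The deviation moved with the percentage of reads outside genes (Pearson r = -0.549 over 15 libraries and -0.924 within WT, as a description). With that percentage as a covariate the fit called 0 genes, and 0 without WT 1, 3, 4 or 5 in turn, 906 without WT 2 and 3046 without cS5Ahi 5.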

How the data were processed

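Per the labels' protocols, CD8-selected lymph node cells gave polyadenylated RNA for 15 libraries. Each deposited file gives raw read counts for 1 library, as whole numbers per gene without normalisation by the authors. TopHat 1.4.1, HTSeq 0.6.1p1 and cutadapt are named with the mm9 genome, per the submitters' processing notes; strand settings are not given in the sources used here. The 21025 gene entries (20661 matched by accession to RefSeq symbols of GRCm38.p6, some entries spanning 2 symbols) were kept apart from 5 summary entries. Ambiguous reads made up 0.533 to 0.687%.

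Low-count genes were removed with filterByExpr (minimum count 10, minimum total 15), leaving 11979. A robust quasi-likelihood fit in edgeR 4.0.16 (R 4.3.3, limma 3.58.1, TMM factors) had 1 mean per genotype and no covariate. The linear contrast gives the log2 change per step, which at even steps rests on WT and cS5Ahi. The quadratic contrast gives cS5Alo minus the midpoint. Both were repeated with the group mean log2 CPM of Stat5a (prior count 2) as dose. Positions carry 95% Fieller intervals. Calls used a Benjamini-Hochberg adjusted p under 0.05 over all genes. Marker scores are mean log2 CPM, tested with 1e+05 permutations of libraries. The biological coefficient of variation common to all genes was 0.234. The fit was checked on simulated data.

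Groups follow title and genotype; the description of cS5Ahi 1 names cS5Alo, and it was kept as cS5Ahi. Over the 30 within-group pairs of libraries, chi-square per degree of freedom was 9.98 to 112, so no libraries were merged. WT 1 and 2 were in lane 2, the other libraries of that flow cell in lane 3.

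Gene lists, members and the rule for named genes were chosen with earlier results of these data known, and the salivary list was drawn from them. The rule took Stat5a, Stat5b, Cd8a, Cd8b1, up to 6 rises and 6 falls of largest change per shape with a mean of at least 10 CPM in the highest group, up to 3 members per list of smallest adjusted p and up to 2 called by the quadratic term. Low partial genes had no rule of their own. Cish, Bcl6, Pim1 and Irf7, and members listed without full values, were chosen after their values were seen. Some genes are not reported here. Counts are not read as pairwise group tests. Alternatives were other scaling, filters, tools, intervals, covariates and left-out libraries.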

Additional observations from a re-analysis of the deposited data

Results flagged for a closer look

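In groups of 5 libraries, a lowest or highest library was set apart when its gap to the nearest other library exceeded 0.71 of the group's range (Dixon's test). Over 66 genes and 11 marker scores this gave 6 of 231 groups (2.6%), where chance gives about 1 in 20. Of the 6, 2 were in cS5Ahi 4, a library with 36.8% of reads outside genes: Klra3 at 23.7 CPM (nearest 13.3) and Klra4 at 59.9 CPM (nearest 24.9). WT 2 was highest for Itgae at 234 CPM (nearest 187) and for Itgb1 at 90.6 CPM (nearest 78.3). Ago2 was highest in cS5Ahi 2 at 251 CPM (nearest 208). The dendritic marker score was lowest in cS5Alo 5 at 1.96 mean log2 CPM (nearest 2.61).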

How the results depend on the processing

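Of the linear results of the named genes reported here 3133 kept their direction and their side of the threshold, 268 lost the call, 14 gained one and 22 changed sign. The sign changes were in genes not called by the linear term. On library size alone the slope of Cd8a was -0.0129. Leaving out 1 library at a time put Calm2 at -0.00623 (without WT 1) to 0.129, Sar1b at -0.00619 (without WT 5) to 0.108 and Sbf1 at -0.0962 to 0.0185 (without WT 5). Calm2 was also negative without WT 5 (-0.00149) and Sar1b without cS5Ahi 1 (-0.00375). Without WT 3 and 4, Asah1 was at 0.122, Blk at 0.015 and Cd8a at -0.00234, and without WT 1 and 2 Calm2 was at -0.00712. Without WT 3, WT 4 and cS5Ahi 4 Asah1 was at 0.111. With the B cell score Blk was at 1.24, Csf3r 0.376, Lst1 0.107, Lyz2 0.263, Mgst2 0.0747, Sar1b -0.0272 and Sbf1 0.0454, and with the salivary score Asah1 was at 0.12, Blk 0.298, Cd8a -0.0192 and Lst1 0.0197. Of the quadratic results 924 kept it and 183 lost it. The linear count was 368 with the B cell score and 531 when the salivary score entered the fit instead, and 1081 without WT 3, WT 4 and cS5Ahi 4, an exclusion chosen after seeing the data. The quadratic count was 384 with DESeq2, 606 with limma voom, 197 with the salivary score and 59 with a replicate block. The block rests on shared numbers only: same-numbered libraries correlated between -0.32 and 0.20 over 15 pairs, 2 of them over 0.1, and the best correlate shared the number in 1 of 30 cases. With Stat5a as dose, DESeq2 called 38 quadratic terms.

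Graded genes numbered 358 and 52 with 90 and 99% intervals, 74 with the B cell and 73 with the salivary score, 87 without WT 3 and 4, and 78 without WT 3, WT 4 and cS5Ahi 4. Low partial genes numbered 79 and 12 at those intervals, 29 with the salivary score, and 26 and 25 without these libraries. High only genes numbered 260 at 99% and 194 with the B cell score. Plateau genes numbered 30 and 1 at those intervals, 0 with the B cell and 1 with the salivary score, 9 with the block, 60 without WT 1 and 2, and 5 and 4 without the libraries above. Turning genes numbered 49 and 82 with the B cell and salivary scores, 4 with the block, 50 without WT 1 and 2, and 15 without WT 3, WT 4 and cS5Ahi 4. The within-genotype count was 0 on library size alone, 22 without a filter, 1711 with a stricter filter, and 0 with the block, the percentage of reads outside genes as a covariate, or either exclusion.

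Leaving out 1 library at a time gave 1247 to 1905 linear calls, 60 to 208 quadratic calls, 0 to 3 with Stat5a as dose, 134 to 286 graded, 26 to 46 low partial, 347 to 455 high only, 7 to 49 plateau, 1 to 84 turning and 0 to 3046 within-genotype genes. Plateau counts also moved past 1.5 times without WT 2 or 5, cS5Ahi 1 or 2, or cS5Alo 2, 3, 4 or 5, and turning counts without WT 1 or 5, cS5Ahi 2 or 5, or any cS5Alo library. The causes were not tested. Depth limits genes near 1 CPM, where 12177642 reads give few counts.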

Other observations

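Inhibitory receptors, ectonucleotidases and the exhaustion-linked transcription factors listed with them went in both directions. Of these 21 genes, 3 rose and 4 fell, against 6.88 and 7.25% of all genes, with a list median of -0.12 per step (log2). The rises were Entpd1 (1.82 per step, high only), Nt5e (0.47, graded) and Lair1 (0.76, graded). Lag3 (-0.66), Cd200 (-1.05), Tox (-0.44) and Nr4a1 (-0.68) were the falls, Tox and Nr4a1 being transcription factors, and Nr4a1 alone was graded and the others undetermined. Pdcd1 and Havcr2, which encode PD-1 and TIM-3, had slopes of -0.79 and -0.81 that were not called.

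Nutrient genes called as high only were Gpi1 (0.20 per step), Pgk1 (0.29) and Eno1 (0.28) of glycolysis, the amino acid transporter gene Slc7a5 (0.33) and the transferrin receptor gene Tfrc (0.36). Tfrc averaged 42.7 CPM in WT, 43.6 in cS5Alo and 70.3 in cS5Ahi, and lost its linear call once the B cell score entered the fit.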
